A study of Drosophila melanogaster with 7 samples.

Results

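The heat shock genes examined here are 10 genes of the fruit fly Drosophila melanogaster, chosen by symbol and matched to their gene identifiers, of 17753 genes counted by Gro-seq in cycle 14 embryos. They are the 6 copies of Hsp70 (Hsp70Aa, Hsp70Ab, Hsp70Ba, Hsp70Bb, Hsp70Bbb and Hsp70Bc), their relative Hsp68, the Hsp90 gene Hsp83, and the small heat shock protein genes Hsp26 and Hsp27. In Gro-seq, nuclei are isolated and engaged RNA polymerases extend their transcripts with a biotinylated nucleotide, so that the purified and sequenced RNA reports ongoing transcription and not stored maternal RNA. The study compared 3 control libraries (ctr) with 4 triple mutant libraries (TM), each from pooled, hand-staged embryos at cycle 14, when the blastoderm is cellularizing and the zygotic genome is fully active. TM embryos descend from flies homozygous for a Su(var)3-9 knockout, with shRNAs against dSetDB1 (gene egg) and G9a driven in the maternal germline by a tubulin Gal4, to remove the H3K9 methyltransferases. The ctr embryos came from a cross of the RNAi collection's line, and the labels show 1 parental line code common to both crosses without saying what it carries. No heat shock is named in the protocols.

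Heat shock proteins are chaperones that hold or refold unfolded proteins. Their genes are switched on by the heat shock factor Hsf, which binds arrays of inverted GAA units called heat shock elements, and in flies Hsp70 is the classic case of a promoter on which GAGA factor (Trl) keeps the chromatin open and RNA polymerase II is already engaged and paused shortly after the start, before any heat. Hsp83 differs from the others in that it is transcribed strongly without stress, and Hsp26, Hsp27 and Hsp83 are also transcribed in the ovary.

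The sequences of the Hsp70 copies decide how their reads can be counted, so a stretch in which the copies differ is shown first. All loci lie on chromosome 3 (build dm6, from the files and the RefSeq genome of the same release): Hsp70Aa and Hsp70Ab at cytological position 87A (chr3R:11954163-11956544 and chr3R:11958535-11960909), the 4 others at 87C (Hsp70Ba at chr3R:12465453-12467776, Hsp70Bbb at chr3R:12502510-12504856, Hsp70Bb at chr3R:12505793-12508139 and Hsp70Bc at chr3R:12509076-12511461). Each copy is a single exon. In the alignment of the 6 copies, 169 of 2292 columns without a gap varied, and the 60 columns with the most differences are printed, with the 10 variable positions in capitals.
Hsp70Ab (the same in Hsp70Aa): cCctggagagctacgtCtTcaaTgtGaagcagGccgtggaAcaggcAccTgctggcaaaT
Hsp70Ba: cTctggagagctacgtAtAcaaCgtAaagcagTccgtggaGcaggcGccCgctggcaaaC
Hsp70Bb (the same in Hsp70Bbb): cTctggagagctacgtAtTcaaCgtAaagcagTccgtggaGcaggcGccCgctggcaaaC
Hsp70Bc: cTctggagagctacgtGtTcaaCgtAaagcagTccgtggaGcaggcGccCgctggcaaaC
The capitals separate the 87A pair from the 87C copies and hardly separate the copies within each locus. Hsp70Aa and Hsp70Ab differed at 1 of 2375 aligned bases (T20C, counted from 1 at the Hsp70Aa gene start, where all 4 copies at 87C carry the Hsp70Ab base) and at 7 gap bases. Between the loci, identity was 93.3% to 93.8%, against 97.4% to 99.8% among the 4 copies at 87C and 73.3% to 73.7% between any copy and Hsp68. Of the 50-base stretches of each copy, 0.817% (Hsp70Ab) to 13.4% (Hsp70Bc) occurred at only 1 place in the genome, so that counts of a single copy are uncertain. The 4 other members were mostly unique, with 100% of such stretches for Hsp26 and Hsp68 and 96.1% for Hsp83, but only 54.8% for Hsp27.

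Promoters were searched from 250 bases before to 50 bases after the annotated start, on both strands, for the heat shock element forms GAANNTTC and TTCNNGAA (2 units), which overlap in longer arrays, and for the 3-unit form in which GAANNTTC goes on with NNGAA. The promoters of Hsp70Ab, Hsp68 and Hsp83 are shown as examples with different numbers of matches, with matches to a 2-unit form in capitals. For Hsp83 the window around the second of 2 annotated starts, 247 bases after the first, is printed.
Hsp70Ab (chr3R:11958285-11958584, plus strand): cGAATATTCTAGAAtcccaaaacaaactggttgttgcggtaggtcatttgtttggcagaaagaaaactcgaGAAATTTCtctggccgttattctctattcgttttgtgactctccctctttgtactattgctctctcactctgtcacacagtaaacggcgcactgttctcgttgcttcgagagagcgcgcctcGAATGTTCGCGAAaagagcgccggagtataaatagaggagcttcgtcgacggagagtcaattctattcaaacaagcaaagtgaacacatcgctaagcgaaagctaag
Hsp68 (chr3R:24057261-24057560, minus strand): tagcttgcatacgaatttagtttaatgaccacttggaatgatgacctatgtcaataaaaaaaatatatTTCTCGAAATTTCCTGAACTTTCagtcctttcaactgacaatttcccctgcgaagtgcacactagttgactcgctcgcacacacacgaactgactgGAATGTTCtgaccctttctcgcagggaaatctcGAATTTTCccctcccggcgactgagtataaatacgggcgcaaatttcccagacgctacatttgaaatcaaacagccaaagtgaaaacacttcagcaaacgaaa
Hsp83, second start (chr3L:3192966-3193265, plus strand): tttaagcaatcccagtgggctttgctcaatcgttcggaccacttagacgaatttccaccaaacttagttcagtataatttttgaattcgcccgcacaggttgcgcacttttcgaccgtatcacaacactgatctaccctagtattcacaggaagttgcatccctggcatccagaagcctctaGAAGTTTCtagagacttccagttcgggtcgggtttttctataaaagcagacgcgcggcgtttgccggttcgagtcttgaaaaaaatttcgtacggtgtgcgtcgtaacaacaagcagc
Hsp70Ab held 5 matches to the 2-unit forms and 2 to the 3-unit form, Hsp68 held 6 and 3, and Hsp83 held 1 and 0, beginning 68 bases before the second start. Around the first start of Hsp83 and the only annotated start of Hsp27 no match was found in the window. In a wider search, 1000 bases to each side, Hsp27 had 2 matches to the 2-unit forms, the nearest beginning at base -338. Hsp26 had 3 matches to the 2-unit forms in the window around its first start and 2 around a second start, 52 bases later. Neither window of Hsp26 held the 3-unit form. Of 13827 promoters of protein-coding genes searched over the same window, 15.97% held a 2-unit form and 0.434% the 3-unit form. The pentamer GAGAG, part of the GAGA factor site, occurred 6 to 8 times in each Hsp70 promoter and 6 times in that of Hsp26, but not in those of Hsp68, Hsp83 and Hsp27, and it occurred in 29.7% of all promoters searched. A match is a description of the letters and not a bound site.

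The authors deposited 2 tables of counts. The gene-body table counts sense reads with a mapping quality of at least 3 over whole genes, 18889493 to 22200059 per library. The second, an exon table from TEtranscripts, holds 29391697 to 35131766 counts per library. How the exon table treats reads with several matches is not given in the sources used here. Neither table splits a gene by position, so paused polymerases near the start cannot be told from those farther in. Pausing was not tested. Values are given as CPM, counts scaled to a common library size with TMM factors, and TM was compared with ctr by edgeR's quasi-likelihood test over all genes, with a threshold of 0.05 on the Benjamini-Hochberg adjusted p. The Hsp70 copies were read from the exon table and the others from both, because how the exon table treats strand is not given in the sources used here and Hsp83, Hsp68 and Hsp27 each overlap the end of a gene on the opposite strand by 13 to 49 bases. Of all genes, 6.96% passed the threshold in the exon table (436 higher and 540 lower in TM) and 10.8% in the gene-body table (486 higher and 697 lower). Scaling by library totals alone turned the split to 318 higher and 681 lower in the exon table and to 614 higher and 488 lower in the gene-body table. Most pairs of TM libraries differed more than pairs of ctr libraries did (chi-square per degree of freedom over 3880 genes 20.9 to 26.1 for ctr pairs and 25.4 to 199 for TM pairs). Of the genes targeted by shRNA, whose depletion of a transcript nascent counts do not measure, egg ranged from 28.0 to 36.6 gene-body CPM in ctr and from 31.5 to 45.2 in TM, and G9a from 143 to 148 and from 117 to 159. Su(var)3-9, the gene knocked out in TM, was listed at 0 in the gene-body table of all libraries and had 135 to 156 exon CPM in ctr and 119 to 131 in TM (log2 fold change -0.20, edgeR adjusted p = 0.18), so that these counts do not show the loss that the knockout label names. Su(var)3-9 lies within eIF2gamma, a gene on the same strand whose reads cannot be told apart from it there, and which part of the gene the knockout removes was not examined here, so that the label was not checked by these counts. Cellularization markers were abundant in every library, with summed gene-body CPM of slam, nullo and bnk of 2206 to 3127 in ctr and 1568 to 5868 in TM, and Sry-alpha was listed at 0 in that table.

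Hsp83, which encodes the Hsp90 chaperone, was the only member whose counts differed between the groups past the threshold, and it did so in both tables. In the gene-body table it reached 141, 116 and 124 CPM in ctr and 308, 281, 228 and 177 CPM in TM libraries 1 to 4. Every TM library lay above every ctr library. The means were 127 ± 12.4 CPM (SD, n = 3) and 248 ± 58.0 CPM (SD, n = 4), a log2 fold change of 0.97 (SE 0.17, edgeR adjusted p = 0.0048), or 1.96-fold. In the exon table the libraries had 124, 109 and 115 CPM in ctr and 213, 209.6, 183 and 146 CPM in TM, with a log2 fold change of 0.70 (SE 0.12, edgeR adjusted p = 0.0022). The groups were again separate, and within TM the order of the libraries was the same in both tables. The TM libraries spread more widely than the ctr libraries.

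The level of the cellularization markers moved with Hsp83 within TM. The mean log2 CPM of slam, nullo, bnk and Sry-alpha, all early zygotic genes of cellularization, was 8.82, 8.03, 7.90 and 6.50 in TM libraries 1 to 4 and 7.14, 6.71 and 7.46 in ctr libraries 1 to 3. Of the 4 markers, nullo was the lowest and differed most within TM, with 43.2 exon CPM in library 1 and 2.25 in library 4. TM libraries 1 to 3 lay above all ctr libraries in the mean marker level and TM library 4 below them. The part of embryo stage in the Hsp83 difference was not tested. With this marker level added to the model, which was decided once the data had been seen, the log2 fold change of Hsp83 was 0.70 in the gene-body table (edgeR adjusted p = 4.0e-05) and 0.51 in the exon table (edgeR adjusted p = 0.0012). Without TM libraries 1 and 2, likewise decided later, it was 0.67 (edgeR adjusted p = 0.0057) and 0.50 (edgeR adjusted p = 0.035). The estimate was lower in both fits. The marker level goes in part with the group in these 7 libraries, so neither fit can separate stage from genotype.

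**Figure D1:**
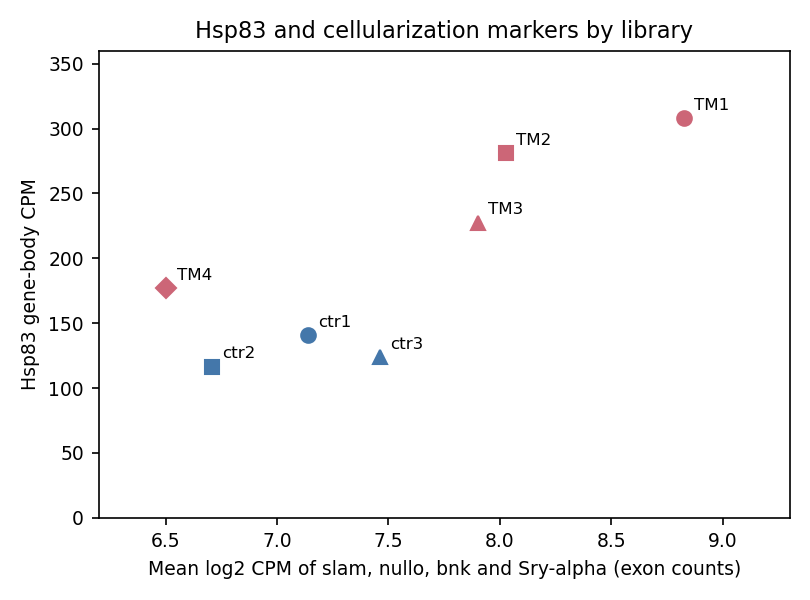
Gene-body CPM of Hsp83 (vertical axis) against the mean log2 CPM of 4 cellularization markers (horizontal axis) in each library, with symbols for the library number and colours for the group. The 4 TM libraries lie at 177 to 308 CPM and the 3 ctr libraries at 116 to 141 CPM, and TM4 has the lowest marker level.

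Both genes next to Hsp83 (chr3L:3192969-3197059, plus strand, 3 annotated exons) had higher means in TM. CG14965, which begins 477 bases before the Hsp83 start and runs away from it on the opposite strand, had 56.8 ± 8.45 gene-body CPM in ctr (SD, n = 3) and 76.0 ± 7.57 in TM (SD, n = 4), a log2 fold change of 0.42 (SE 0.13, edgeR adjusted p = 0.047), and it missed the threshold in the exon table (0.40, edgeR adjusted p = 0.073). CG14966, whose end overlaps that of Hsp83 by 15 bases on the opposite strand, missed it in the gene-body table (0.28, edgeR adjusted p = 0.30) and passed it in the exon table (0.55, edgeR adjusted p = 0.012). The call for CG14965 was lost in 9 of the 15 alternatives run, among them every one that left out a library other than TM library 4.

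The Hsp70 family as a whole did not pass the test. The summed exon counts of the 6 copies gave 214, 169.9 and 193 CPM in ctr and 216, 213, 195 and 202 CPM in TM, so that the groups overlapped. Their means were 192 ± 22.1 CPM (SD, n = 3) and 207 ± 9.80 CPM (SD, n = 4), with a log2 fold change of 0.10 (SE 0.091, edgeR adjusted p = 0.58). Over the 14.2 kb of the 6 copies together this comes to 13.6 ± 1.56 exon CPM per kb in ctr (SD, n = 3) and 14.6 ± 0.692 in TM (SD, n = 4).

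Within the family, the exon counts shifted towards the pair at 87A in TM. Hsp70Aa and Hsp70Ab together took 60.8%, 63.1% and 59.8% of the Hsp70 counts in ctr and 72.6%, 69.1%, 67.8% and 68.8% in TM. The 95% Wilson intervals, which cover counting error only, spanned 58.5% to 64.3% over the ctr libraries and 66.6% to 73.6% over the TM libraries. All 4 TM libraries lay above all 3 ctr libraries in these counts. The mean share rose from 61.2% ± 1.67 (SD, n = 3) to 69.6% ± 2.11 (SD, n = 4), by 8.36 percentage points (two-sided exact permutation test over 35 splits, p = 0.029, which is the lowest value such a test can give here). In the gene-body table the groups were not separate. There ctr library 2 had 18 and 1073 counts for the pair and 188, 171, 5 and 6 for Hsp70Ba, Hsp70Bb, Hsp70Bbb and Hsp70Bc. TM library 3 had 23 and 1375, and 292, 174, 9 and 4, a slightly lower share. Every other pair of libraries kept TM above ctr. That table holds far fewer Hsp70 counts, such as 1157 for Hsp70Ab in ctr library 1, against 3745 in the exon table.

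Almost all of the 87A counts were assigned to Hsp70Ab. It had 123, 104 and 115 exon CPM in ctr and 156, 143, 127 and 135 in TM, with every TM library above every ctr library. Its log2 fold change was 0.30 (SE 0.093), and the edgeR adjusted p of 0.065 missed the threshold. It passed under 5 of 16 alternatives (adjusted p 0.029 to 0.349 over all of them). The other copy of the pair, Hsp70Aa, had 7.19, 3.27 and 0.697 exon CPM in ctr and 1.39, 3.80, 5.15 and 4.03 in TM (log2 fold change -0.05, SE 0.63, edgeR adjusted p = 0.98), with more spread than difference. Since the pair is told apart by so few bases, its split between Hsp70Aa and Hsp70Ab describes the assignment of reads and not the output of each copy.

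At 87C, Hsp70Ba and Hsp70Bb shared the counts. Hsp70Ba had 35.2, 21.8 and 38.8 exon CPM in ctr and 24.1, 22.7, 30.1 and 25.2 in TM (log2 fold change -0.32, SE 0.18, edgeR adjusted p = 0.34). Hsp70Bb had 48.8, 41.0 and 38.7 in ctr and 35.1, 43.3, 32.7 and 37.9 in TM (-0.20, SE 0.13, edgeR adjusted p = 0.41). For both copies the groups overlapped. Hsp70Bbb and Hsp70Bc were listed at 0 in all 7 libraries of the exon table and were left out by the filter on low counts. A count of 0 in that table allows up to 0.0849 to 0.0996 exon CPM by counting error alone. In the gene-body table, however, both had a few counts in every library, 1 to 12 for Hsp70Bbb and 3 to 14 for Hsp70Bc, also too low to be tested. Hsp70Bb is 99.8% identical to Hsp70Bbb, and the part of read assignment in the zeros was not tested, so that they are not read as absence of transcription.

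**Figure D2:**
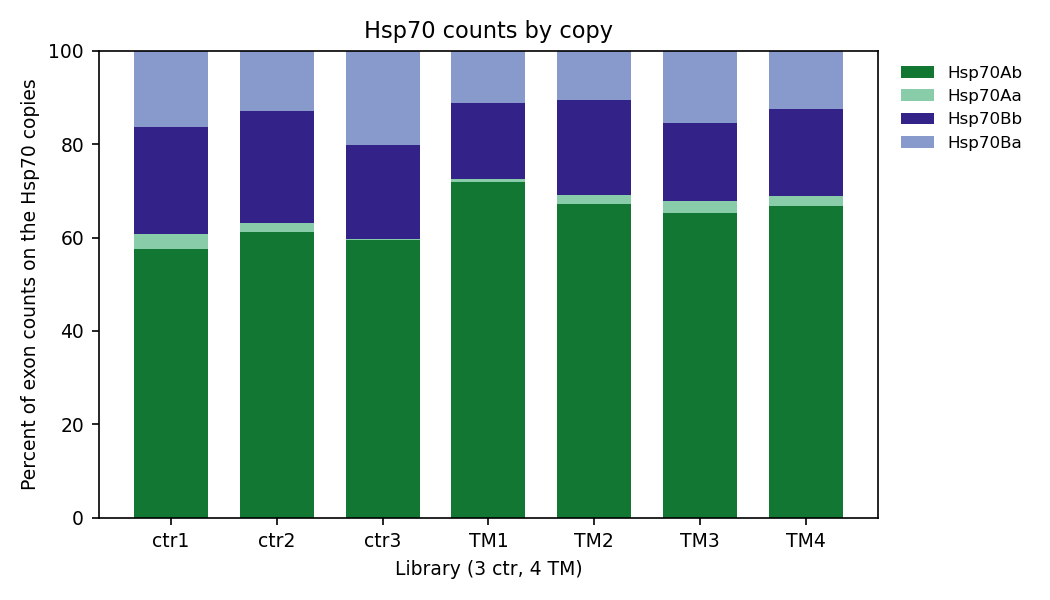
Percent of the Hsp70 exon counts (vertical axis) assigned to each copy in each of the 3 ctr and 4 TM libraries (horizontal axis), with the 87A copies at the bottom and the 87C copies on top. The 87A pair takes 59.8% to 63.1% in ctr and 67.8% to 72.6% in TM, and Hsp70Bbb and Hsp70Bc, at 0, are not drawn.

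The genes flanking the Hsp70 loci did not pass the threshold in either table. CG31211, which lies 124 bases from the end of Hsp70Aa, had a gene-body log2 fold change of -0.09 (edgeR adjusted p = 0.60). CG3281, whose end overlaps that of Hsp70Ab by 27 bases, had -0.02 (edgeR adjusted p = 0.95), and CG5608, beside Hsp70Ba, had -0.38 (edgeR adjusted p = 0.66). The noncoding alphagamma element between the 87C copies, a transcript that shares heat-inducible promoter sequence with Hsp70, had 378 ± 24.7 gene-body CPM in ctr (SD, n = 3) and 379 ± 42.4 in TM (SD, n = 4), with a log2 fold change of 0.00 (edgeR adjusted p = 0.996). Octbeta3R, on the far side of the 87C cluster, was too low to be tested in the gene-body table.

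Hsp68, an inducible Hsp70 relative, did not pass the test in either table. In the gene-body table it had 81.0, 74.5 and 88.2 CPM in ctr and 84.8, 90.4, 103 and 76.5 CPM in TM, and the groups overlapped. The log2 fold change was 0.12 (SE 0.12, edgeR adjusted p = 0.57), and 0.11 in the exon table (SE 0.096, edgeR adjusted p = 0.59). Of its neighbours (Hsp68 lies at chr3R:24055080-24057310, minus strand), SMC1, a cohesin subunit gene, had a gene-body log2 fold change of 0.14 (edgeR adjusted p = 0.42), and CG6000 and lncRNA:CR44097, which share 1 annotated interval, were at 0 in that table and had exon values of -0.18 and -0.39 (edgeR adjusted p = 0.78 and 0.57).

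The small heat shock protein genes at 67B, which also encode chaperones, were at lower CPM, and neither passed the test in either table. Hsp26 (chr3L:9376418-9377427, minus strand) had 14.5, 20.6 and 33.6 gene-body CPM in ctr and 31.0, 31.8, 20.04 and 24.4 in TM, a log2 fold change of 0.23 (SE 0.26, edgeR adjusted p = 0.66). The ctr libraries spanned the whole TM range, and the sign of the difference turned without ctr library 1 (-0.01). Hsp27 (chr3L:9384063-9385694, plus strand) had 30.3, 23.3 and 28.1 gene-body CPM in ctr and 37.6, 33.4, 29.5 and 38.0 in TM (0.35, SE 0.17, edgeR adjusted p = 0.23). In the exon table all 4 TM libraries of Hsp27 (29.6 to 34.4 CPM) lay above all 3 ctr libraries (26.1 to 27.4 CPM), with a log2 fold change of 0.28 (SE 0.13) that missed the threshold (edgeR adjusted p = 0.21).

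**Figure D3:**
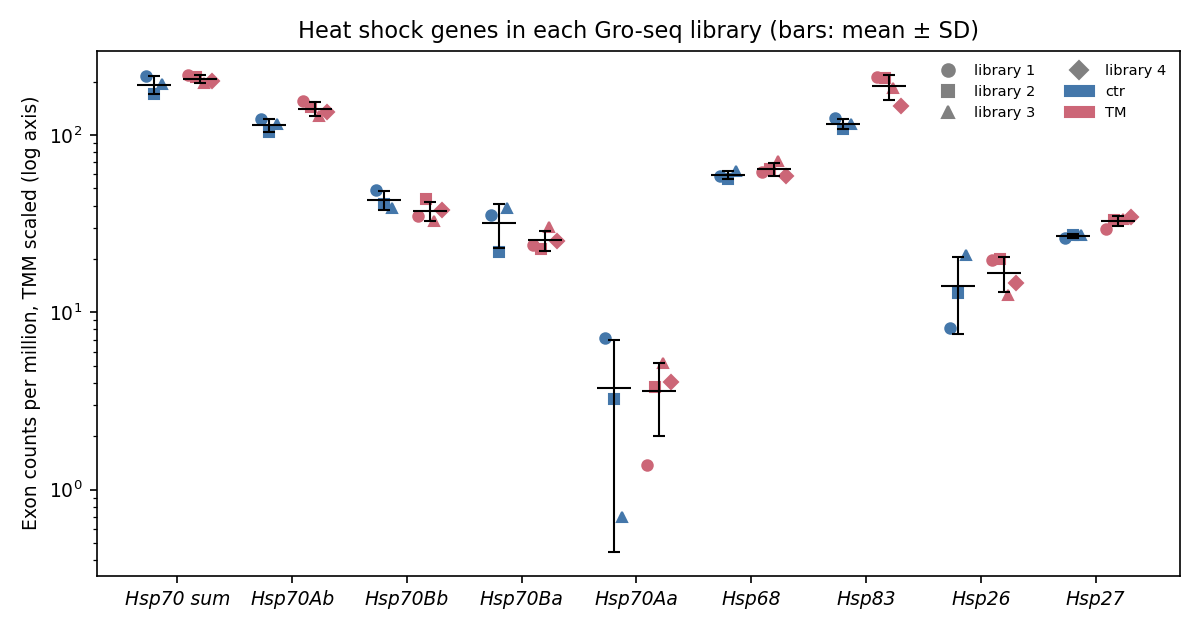
Exon CPM on a log axis for the summed Hsp70 counts, the 4 Hsp70 copies with counts, and Hsp68, Hsp83, Hsp26 and Hsp27 in every library, with symbols for the library number and bars for the mean and SD of 3 ctr and 4 TM libraries. For Hsp83, Hsp70Ab and Hsp27 the TM points lie above the ctr points, and for the other genes drawn the groups overlap.

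Of the 8 members tested in the exon table, 1 rose and none fell, beside 3.11% of all genes higher and 3.85% lower, and 3 had every TM library above every ctr library, beside 9.79% of all genes. Outside the Hsp70 copies, 1 of the 4 members tested in the gene-body table rose and none fell. Of all genes, 4.45% were higher and 6.38% lower. Of the 4 members, 1 had every TM library above every ctr library, beside 10.9% of all genes. In the exon table the 8 members had a median log2 fold change of 0.18, against 0.02 for all genes tested. The 8 include near-identical Hsp70 copies, so the median and the counts over the 8 depend in part on the assignment of reads. At an unadjusted p under 0.05, edgeR had 3 of the 8 members higher and 0 lower in the exon table, and 1 of the 4 higher and 0 lower in the gene-body table. Over all genes, 2993 of 14021 and 2618 of 10917 had such a p, both directions together. DESeq2 with adjustment called 2 of the 8 higher and 0 lower, and 1 of the 4 higher and 0 lower. Over all genes it called 726 of 14021 higher and 692 lower, and 713 of 10917 higher and 770 lower.

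**Figure D4:**
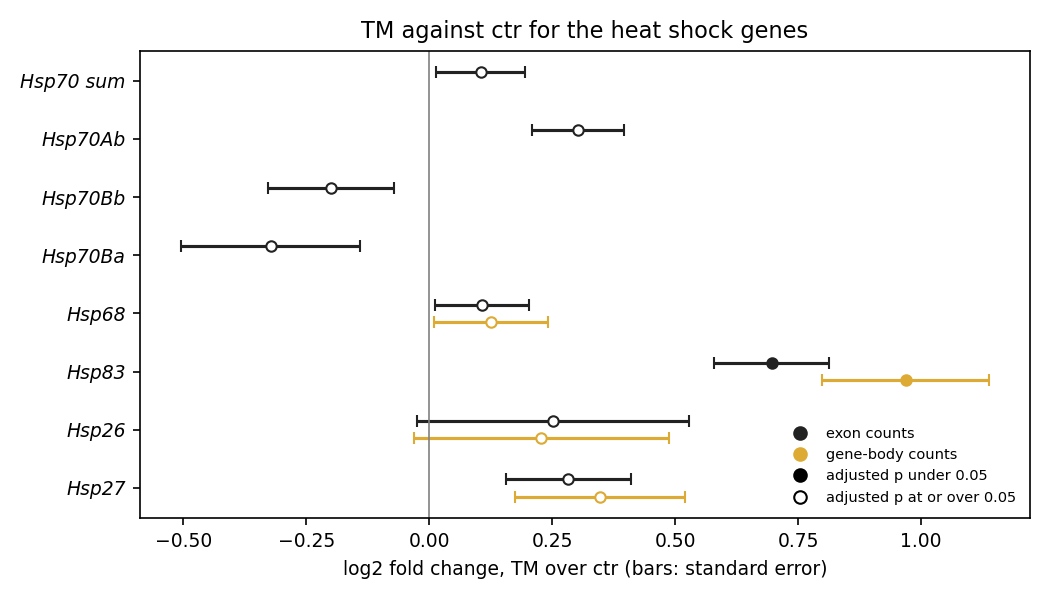
Log2 fold change of TM over ctr (horizontal axis, bars show the standard error) for the summed Hsp70 counts, the 3 most counted Hsp70 copies and the 4 other members, from exon counts (black) and gene-body counts (yellow). The filled points, past an adjusted p of 0.05, are those of Hsp83, at 0.70 and 0.97.

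By gene-body CPM per kilobase of gene, the order of the members other than the Hsp70 copies differed between the groups. In ctr, Hsp68 had 36.4 ± 3.05 gene-body CPM per kb, Hsp83 31.0 ± 3.04, Hsp26 22.7 ± 9.63 and Hsp27 16.7 ± 2.22 (SD, n = 3). The ranges of mean ± SD of neighbours in this order overlapped. In TM, Hsp83 came first with 60.7 ± 14.2 CPM per kb, followed by Hsp68 with 39.7 ± 4.90, Hsp26 with 26.5 ± 5.53 and Hsp27 with 21.2 ± 2.44 (SD, n = 4). There, only the ranges of the last pair overlapped. In the exon table Hsp83 led Hsp68 per kb in ctr too, with 116 CPM over 4091 bases beside 59.4 CPM over 2231 bases. The change in their order was thus seen in the gene-body table alone. Hsp83 moved from rank 2469 to rank 909 of 10917 genes by gene-body CPM per kb. Hsc70-4, the main constitutive Hsp70 cognate, had rank 335 in ctr, where the highest of these members, Hsp68, had rank 1976.

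The genes whose centred log2 gene-body CPM over the 7 libraries was nearest to that of Hsp83 were Shawl, Agpat1 and Elk, with root mean square differences of 0.10, 0.12 and 0.15, where the median over 10909 genes was 0.63. Those nearest to the Hsp70 sum were CG1116, RpL22 and CG7011 (0.031, 0.045 and 0.045, median 0.33). These are descriptions of likeness over 7 libraries of 2 groups.

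The other genes of the heat response and of protein folding were described by 5 lists with 51 genes, of which 46 were tested in the gene-body table. Of these 46, 3 rose and none fell past the edgeR threshold, a share near that of all genes (4.45% higher and 6.38% lower). At an unadjusted edgeR p under 0.05, 4 were higher and 3 lower, beside 2618 of 10917 genes in both directions together. DESeq2 with adjustment called 3 higher and 0 lower, beside 713 of 10917 genes higher and 770 lower. The 46 genes had a median log2 fold change of 0.07, against 0.03 for all genes. With exon counts, 2 of 49 rose and 1 fell, beside 3.11% of all genes higher and 3.85% lower.

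The gene with the clearest change among them was lncRNA:Hsromega, a noncoding heat-inducible gene whose nuclear transcripts organize omega speckles. It had 1084 ± 18.1 gene-body CPM in ctr (SD, n = 3) and 1508 ± 53.7 in TM (SD, n = 4), a log2 fold change of 0.48 (SE 0.078, edgeR adjusted p = 0.00075), with every TM library above every ctr library. It stayed past the threshold in all 15 alternatives run (log2 fold change 0.45 to 0.54) and in the exon table (0.45, edgeR adjusted p = 0.0029).

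Gp93, the Hsp90 of the endoplasmic reticulum, also rose. Its counts gave 132 ± 6.01 gene-body CPM in ctr (SD, n = 3) and 194 ± 38.7 in TM (SD, n = 4), a log2 fold change of 0.56 (SE 0.13, edgeR adjusted p = 0.011), and TM libraries 1 and 2, with the highest cellularization markers, had the highest counts here too. Without these libraries it was 0.31 and missed the threshold (edgeR adjusted p = 0.13), and it also missed it without ctr library 1 or ctr library 2. The mitochondrial Hsp90, Trap1, had a log2 fold change of 0.11 (edgeR adjusted p = 0.69), and the Hsp90 partners Stip1 (Hop) and Cdc37 had 0.24 and 0.06 (edgeR adjusted p = 0.11 and 0.84).

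Hsp67Ba, a small heat shock protein gene beside Hsp26, rose from very few counts. It had 22, 10 and 25 gene-body counts in ctr and 61, 116, 88 and 142 in TM, which gave a log2 fold change of 2.33 (SE 0.63, edgeR adjusted p = 0.025). The groups did not overlap, but the call was lost in 7 of 15 alternatives and in the exon table (2.27, edgeR adjusted p = 0.088). The nearest gene on the other side of Hsp26, CG4461, and the gene before Hsp27, the small heat shock protein gene Hsp23, had log2 fold changes of -0.11 and 0.26 (edgeR adjusted p = 0.98 and 0.65). CR43483, which overlaps the end of Hsp27, was listed at 0. Hsp22 and CG4456 (Hsp67Bb) had nearly the same exon counts in each library and at most 13 gene-body counts, so their reads could not be told apart.

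Of the regulators of heat shock genes, 0 of 11 passed the edgeR test in the gene-body table, beside 10.8% of all genes. At an unadjusted edgeR p under 0.05 the count was also 0, beside 2618 of 10917 genes, and by DESeq2 it was 0, beside 1483. With so few genes, these counts are near the background and are not read as a result about the regulators. Hsf itself had 375 ± 30.4 CPM in ctr (SD, n = 3) and 416 ± 31.8 in TM (SD, n = 4), a log2 fold change of 0.15 (edgeR adjusted p = 0.32). All 11 regulators, which include the subunits of the pausing factor NELF and of P-TEFb, lay between -0.20 and 0.17 in that table. Trl, the GAGA factor gene, had -0.18 there from 156 to 267 counts per library (edgeR adjusted p = 0.77). In the exon table, with 3864 to 4794 counts per library, every TM library of Trl lay below every ctr library, with a log2 fold change of -0.25 (SE 0.086) that missed the threshold (edgeR adjusted p = 0.094). Hsc70-4 had 0.10 (edgeR adjusted p = 0.49). In the exon table Parp1, which encodes a poly(ADP-ribose) polymerase involved in opening Hsp70 chromatin in flies, fell by 1.36 on the log2 scale (edgeR adjusted p = 0.011), while its gene-body value was -0.20 (edgeR adjusted p = 0.32). The exon call was lost without ctr library 3 (edgeR adjusted p = 0.061) and without TM libraries 1 and 2 (-0.92, edgeR adjusted p = 0.056).

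**Figure D5:**
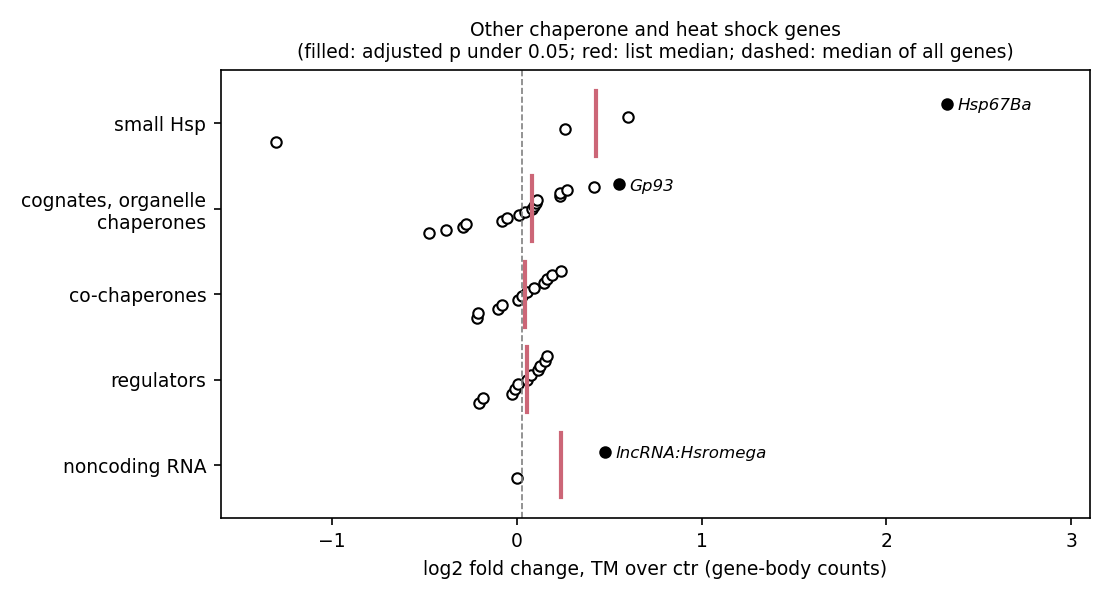
Log2 fold change of TM over ctr (horizontal axis, gene-body counts) for each tested gene of the 5 other lists (vertical axis), with filled points past an adjusted p of 0.05, red lines for list medians and a dashed line for the median of all genes. The filled points are Hsp67Ba at 2.33, Gp93 at 0.56 and lncRNA:Hsromega at 0.48.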

How the data were processed

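Gro-seq libraries of 3 ctr and 4 TM biological replicates were used. Per the file headers, the labels and the methods of the study, the authors trimmed reads with Cutadapt, mapped them to dm6 with Bowtie2 2.3.3.1 in local mode and deposited raw counts of sense reads with a mapping quality of at least 3 over whole genes (featureCounts 1.5.3, Ensembl release 96). The authors also deposited expected counts of exons and repeats, estimated by TEtranscripts in the snakePipes noncoding RNA module. All values of that table are whole numbers, and its handling of strand and of multiply mapped reads is not given in the sources used here. Neither table is normalized. Depth was 18889493 to 22200059 counts per library on gene bodies and 29391697 to 35131766 in the exon table. No removal of duplicate reads is named for Gro-seq in the methods of the study, so intervals and floors cover counting error only.

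Features averaging 10 or more counts in the libraries were fitted with edgeR 4.0.16 in R 4.3.3 (TMM, robust quasi-likelihood test, condition alone), with TMM in the exon table computed over genes and repeats together. Adjusted p-values are Benjamini-Hochberg over the genes tested. The Hsp70 sum replaced the 6 copies by 1 feature. The code was tested on simulated data. Symbols were matched for 17625 of 17753 identifiers, and coordinates equalled those of the reference for 17502. Sequences were read from the RefSeq genome, and copies were aligned with MAFFT 7.526. All 10 members were named, as were genes of the other lists with an adjusted p under 0.05 in the gene-body table, Hsf, Trl, Hsc70-4, the noncoding heat genes, the nearest gene on each side of each locus and the 3 genes most like Hsp83 and the Hsp70 sum. Parp1 and the other uncalled list genes with values were named after their values were seen. The members and lists were chosen with earlier results of these data known. The alternatives were DESeq2 1.42.0, 2 other scalings (and TMM from genes alone in the exon table), 2 other count filters, a replicate block, leaving out each library, and 2 chosen after seeing the data, the marker covariate and leaving out TM libraries 1 and 2.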

Additional observations from a re-analysis of the deposited data

Results flagged for a closer look

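Among 30 gene and share values checked within the 4 TM libraries, 1 had a library far from the others. Octbeta3R, the gene beside the Hsp70 cluster at 87C, had 19 gene-body counts in TM library 3 and 0 in every other library, so that the gap made up the whole range (ratio of gap to range 1). Chance flags about 1 in 20 groups, and the gene was below the filter on low counts in that table.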

How the results depend on the processing

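The rise of Hsp83 stayed past the threshold in all 17 alternatives of the exon table (log2 fold change 0.50 to 0.97, the gene-body table included) and all 15 of the gene-body table (0.67 to 1.10), and the Hsp70 sum stayed short of it in all 16 (0.02 to 0.19). Hsp70Ab passed with DESeq2 (0.31), with a sum of at least 10 counts (0.30), with at least 1 count (0.30), with the replicate block (0.32) and without TM library 4, and ranged from 0.24 to 0.36 when 1 library was left out. The number of members past the threshold in the exon table was 2 instead of 1 in these same settings (1 to 2 over the left-out libraries). Of the other lists, 1 gene fell in the exon table and none in the gene-body table. Hsp70Aa turned its sign with the replicate block (0.20), with the marker covariate (0.37), without TM libraries 1 and 2 (0.30) and over the left-out libraries (-0.54 to 0.85). Hsp26 did so without TM libraries 1 and 2 (-0.048 exon, -0.042 gene body) and over the left-out libraries (-0.023 to 0.66 exon, -0.014 to 0.61 gene body). Of the other uncalled genes, the sign turned for the alphagamma element with a sum of at least 10 counts (-0.0010), with at least 1 count (-0.00090), with the replicate block (-0.068) and over the left-out libraries (-0.067 to 0.056), for CG3281 with library totals (0.043), the marker covariate (0.0074), without TM libraries 1 and 2 (0.024) and over the left-out libraries (-0.057 to 0.026), and for CG4461 without TM libraries 1 and 2 (0.69) and over the left-out libraries (-0.94 to 1.06). The rise of the 87A share was 7.34 to 9.28 percentage points over the left-out libraries, where the exact test cannot reach the threshold with 6 libraries. Over all genes, leaving out 1 library gave 518 to 1361 calls in the exon table, where all libraries gave 976, and 688 to 1667 in the gene-body table, where they gave 1183, and leaving out TM libraries 1 and 2 gave 513 and 659, and the cause was not tested beyond the smaller number of samples.

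The replicate numbers shared by the groups did not pair the libraries: the correlations of deviations from the group means for equal numbers were 0.0086, -0.0049 and -0.018 across genes. With the number as a replicate block, 1314 genes were called in the exon table and 1526 in the gene-body table, and the log2 fold change of Hsp83 was 0.80 and 1.09. DESeq2 called 1418 and 1483.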

Other observations

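The exon count of Hsp83 exceeded its gene-body count by 1073 to 1149 in the ctr libraries and by 724 to 1310 in the TM libraries, of which TM library 1, with the most Hsp83, had the smallest gap. Which reads make up the gap was not tested. For Hsp68 the gap was 216 to 308 counts in ctr and 236 to 354 in TM. For Hsp27 it was 212 to 418 in ctr and 219 to 468 in TM. The gene-body counts of Hsp27 were 53.8% to 79.1% of its exon counts over the 7 libraries.

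The main Hsp70 values were not taken from the gene-body table. There Hsp70Ab had 60.2, 51.2 and 65.3 CPM in ctr and 82.0, 85.1, 71.9 and 69.7 in TM (log2 fold change 0.39, edgeR adjusted p = 0.054). Hsp70Ba and Hsp70Bb had -0.37 and -0.16 (edgeR adjusted p = 0.50 and 0.81). Hsp70Bbb had 5 to 10 gene-body counts in ctr and 1 to 12 in TM, and Hsp70Bc 6 to 9 and 3 to 14, so that the groups overlapped. These are the same libraries as in the exon table and add no independent samples.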
